A study of Danio rerio with 12 samples.

Results

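The response of her4.1 radial glia to amyloid-β42 was described from 6 of the 12 RNA-sequencing libraries of an adult zebrafish brain study. AB42 GFP-positive cells came from Tg(her4.1:EGFP) fish, 6 months old, whose brains were taken 48 hours after an injection of AB42 peptide (named TR-Aβ42 in the protocol). CPP GFP-positive cells came from fish of the same line and age, taken at the same time after an injection of the control peptide, CPP. Each group had 3 libraries. The GFP-negative cells of both injections, again 3 libraries each, served to tell which genes belong to the sorted glia. All fish carried the reporter, in which the her4.1 promoter drives EGFP, so the GFP-positive fraction is whatever cells held enough EGFP to be sorted. Of 31953 genes in the table, 20237 passed the count filter and were tested. Of these, 4064 were at least 2-fold higher in mean CPM (read counts scaled to a common library size) in CPP GFP-positive than in CPP GFP-negative libraries and are called glia-enriched here; without the filter, 5869 genes with a count met that rule. The rule reads the CPP GFP-positive libraries, which are also the controls of the AB42 comparison, so it leans towards genes that came out high in those controls.

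Radial glia line the ventricles of the adult zebrafish brain, where they act as neural stem cells and also carry out astrocyte-like tasks such as glutamate and potassium clearance. Notch signalling, through target genes of the her family, holds them out of the cell cycle, and in zebrafish a brain injury can bring them back into it. Amyloid-β42 is the aggregation-prone fragment of the amyloid precursor protein that accumulates in Alzheimer's disease.

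Total counts ran from 10419435 to 13750673 in the AB42 GFP-positive and from 12996462 to 14843229 in the CPP GFP-positive libraries. A floor of 3 counts lay at 0.202 to 0.288 CPM of the library totals in these 6 libraries, and it covers counting error only, since the reads were amplified without molecular identifiers. Replicates of a group differed beyond counting noise (chi-square over degrees of freedom 2.1 to 4.84), so none was a repeat deposit. The labels do not say if each library stands for its own fish; p-values here cover the spread among these libraries and that spread may be technical. Nor do they give the hour at which brains were taken. Throughout, levels are CPM after TMM scaling, given library by library, as a range or as a mean (± SD of 3 libraries). For some genes only the fold is given. A gene passed at a Benjamini-Hochberg adjusted p under 0.05 in edgeR's quasi-likelihood test over all 20237 genes.

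The GFP-positive libraries held radial glia markers at high levels after both injections, together with smaller amounts of RNA of other cell types. Summed over 34 radial glia markers, the level was 54984, 55646 and 57046 CPM in AB42 GFP-positive cells, against 65402, 63914 and 68118 in CPP GFP-positive cells. The groups did not overlap, and the AB42 libraries were the lower. In the GFP-negative cells the same sum was 6774 to 6966 CPM after AB42 and 3887 to 4139 CPM after CPP. More than any other marker, apoeb accounted for the sum in AB42 GFP-negative cells, with 51.2% of it. In GFP-negative cells apoeb averaged 3506 CPM after AB42 and 866 CPM after CPP, and that apolipoprotein gene is also known from microglia. Taken marker by marker, the median level in GFP-positive cells was 1037% of the GFP-negative level after AB42 and 1064% after CPP. The reporter's own gene her4.1 did not follow: it averaged 28.9 ± 1.03 CPM in AB42 and 32.3 ± 1.49 CPM in CPP GFP-negative cells (SD, n = 3 each).

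Markers of neurons, myelin and immune cells were present in the GFP-positive libraries, and their summed levels were lower after AB42. The summed level of 45 mature neuron markers was 817 to 847 CPM after AB42 and 1411 to 1460 CPM after CPP, or 12.5% and 13.9% of the GFP-negative level of the same injection. For 33 microglia markers it was 1490 to 1629 CPM after AB42 against 1910 to 2086 CPM after CPP. As a share of the GFP-negative level this was 18.8% and 60.4%. That level itself was 8039 to 8459 CPM after AB42 and 3149 to 3460 CPM after CPP. The single gene cd74a held 21.5% of the GFP-positive sum after AB42 (333 CPM) and 32.4% after CPP (644 CPM). Of 32 microglia markers tested in GFP-positive cells 2 rose and 7 fell, with a median of -0.07, beside 6.21% and 12.5% of all genes. Oligodendrocyte lineage markers stood at 28.9% after AB42 and 46.4% after CPP, and lymphocyte and neutrophil markers at 11.9% and 28.3%. Newborn neuron markers stood at 47.4% and 48.8%. Epithelial markers stood at 33.2% after AB42 and 41.8% after CPP, but krt8 held 44.8% and 29.4% of that sum, and the median marker stood at 6.8% and 16.9%. Endothelial and mural markers stood at 84.6% and 126%, with TAGLN holding 39.3% and 42.5% of the sum, and their median marker at 22.5% and 31.9%. The ependymal markers summed to 683 to 703 CPM in AB42 GFP-positive libraries, against 587 to 611 CPM in CPP GFP-positive libraries, and the groups did not overlap. That was 250% of the GFP-negative level after AB42 and 295% after CPP. The GFP-negative sum was 257 to 288 CPM and 202 to 203 CPM, and the median ependymal marker stood at 560% and 440%. FOXJ1 held 23% of the AB42 GFP-positive sum, at 159 CPM against 84.1 CPM in CPP GFP-positive cells. Also above the GFP-negative level was the erythrocyte list (334% and 330%), of which the carbonic anhydrase gene cahz held 92.4% and 90.9%. The cerebellar neuron list stood at 88.3% and 72.2%, and ALDOC, which glia also express, held 81.1% and 78.3% of it; the median cerebellar marker stood at 11.1% after AB42 and 19.7% after CPP, and of 19 tested 1 rose and 12 fell. The only markers at 0 counts in all 6 GFP-positive libraries were gap43, cbln8, sox4a, SOX11 (ENSDARG00000095743), CCR9 (ENSDARG00000099738), PDGFRB (ENSDARG00000100897), krt1-19e and SLC4A1 (ENSDARG00000024560). These genes were also scarce in GFP-negative cells, at means of 0.486 CPM or less, so their absence is not particular to GFP-positive cells. Of them gap43, sox4a and PDGFRB had 0 counts in GFP-negative cells too. None of 44 mature neuron, 20 oligodendrocyte lineage and 32 microglia markers tested was glia-enriched. In other lists 33 of 42 ependymal, 7 of 25 newborn neuron and 4 of 30 endothelial and mural markers tested were. So were 2 of 26 epithelial, 2 of 11 erythrocyte, 1 of 19 cerebellar neuron and 1 of 24 lymphocyte and neutrophil markers. In bulk samples such as these, fewer cells of a type and less RNA per cell cannot be told apart.

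**Figure D1:**
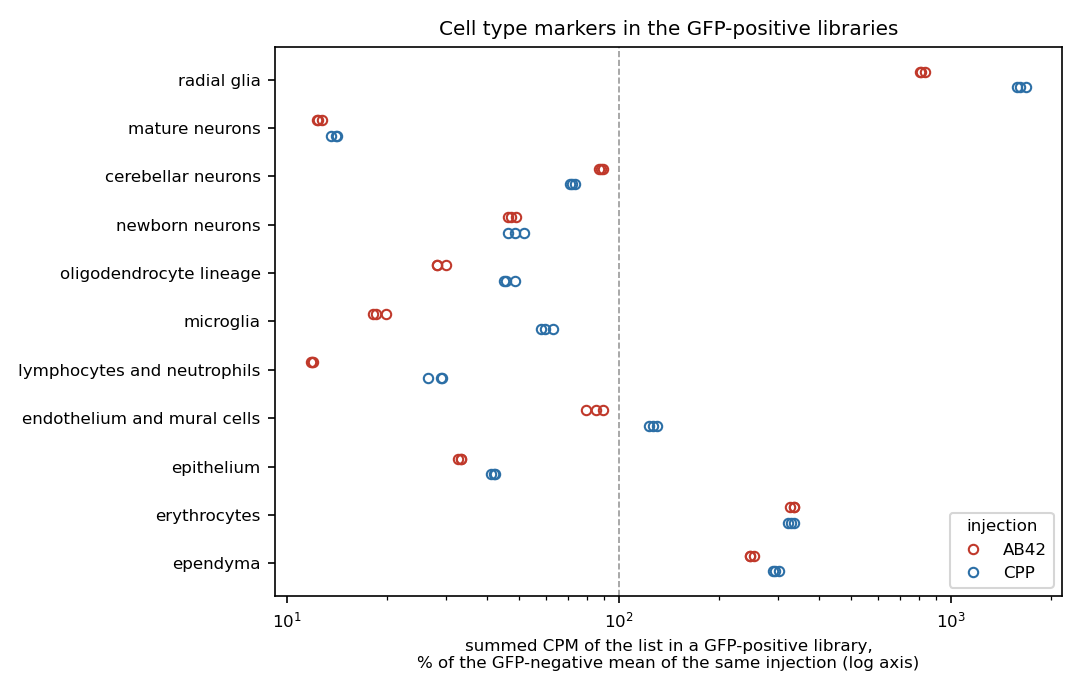
Summed CPM of each cell type marker list in every GFP-positive library (points, 3 a group), as a percentage of the mean of the GFP-negative libraries of the same injection, on a log axis with a dashed line at 100%. Microglia markers sit at 18.8% on average after AB42 and at 60.4% after CPP; radial glia markers sit at 817% and 1625%, with apoeb as 51.2% of the AB42 GFP-negative sum, and their median marker at 1037% and 1064%.

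In GFP-positive cells the falls after AB42 were most frequent among genes whose RNA is mainly in the GFP-negative fraction. Of 20237 genes tested 18.7% passed, 6.21% (1256) higher and 12.5% (2523) lower after AB42. Among the 4797 genes at least 2-fold higher in CPP GFP-negative than in CPP GFP-positive cells, 99 rose and 1208 (25.2%) fell, with a median log2 fold change of -0.37. Among the 4064 glia-enriched genes 18.6% passed, 9.62% (391) higher and 8.93% (363) lower, with a median of 0.00. AB42 and CPP libraries did not overlap for 34.8% of glia-enriched genes and for 32% of all genes. The share of counts that fell on glia-enriched genes was 34.7 to 35% in AB42 GFP-positive and 33.1 to 33.7% in CPP GFP-positive libraries.

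Most changes among glia-enriched genes were small. Of the 391 that rose, 132 reached 1.5-fold and 34 reached 2-fold; of the 363 that fell, 116 and 47 did. Among the 369 genes enriched at least 16-fold, 39 were higher and 71 lower. The balance between rises and falls rested on the scaling. With library totals in place of TMM the median of glia-enriched genes moved to 0.10 and 604 were higher and 228 lower, so that 72.6% of those past the threshold were higher, against 51.9% with TMM. In a fit of the 6 GFP-positive libraries alone 543 were higher and 322 lower (62.8% higher). For all genes these fits gave 54.4% and 47.1% higher, against 33.2% with TMM over 12 libraries. With the enrichment rule read from the AB42 fractions instead, 3756 genes met it and 424 rose and 260 fell. At the edge of the rule, rtn4a stood at 2.0006 times, PPP1R14B at 2.0009 times and C9H2orf76 at 2.0014 times its GFP-negative level, and RABL3 at 1.9999, PAPPA at 1.9985 and TC2N at 1.9983 times.

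**Figure D2:**
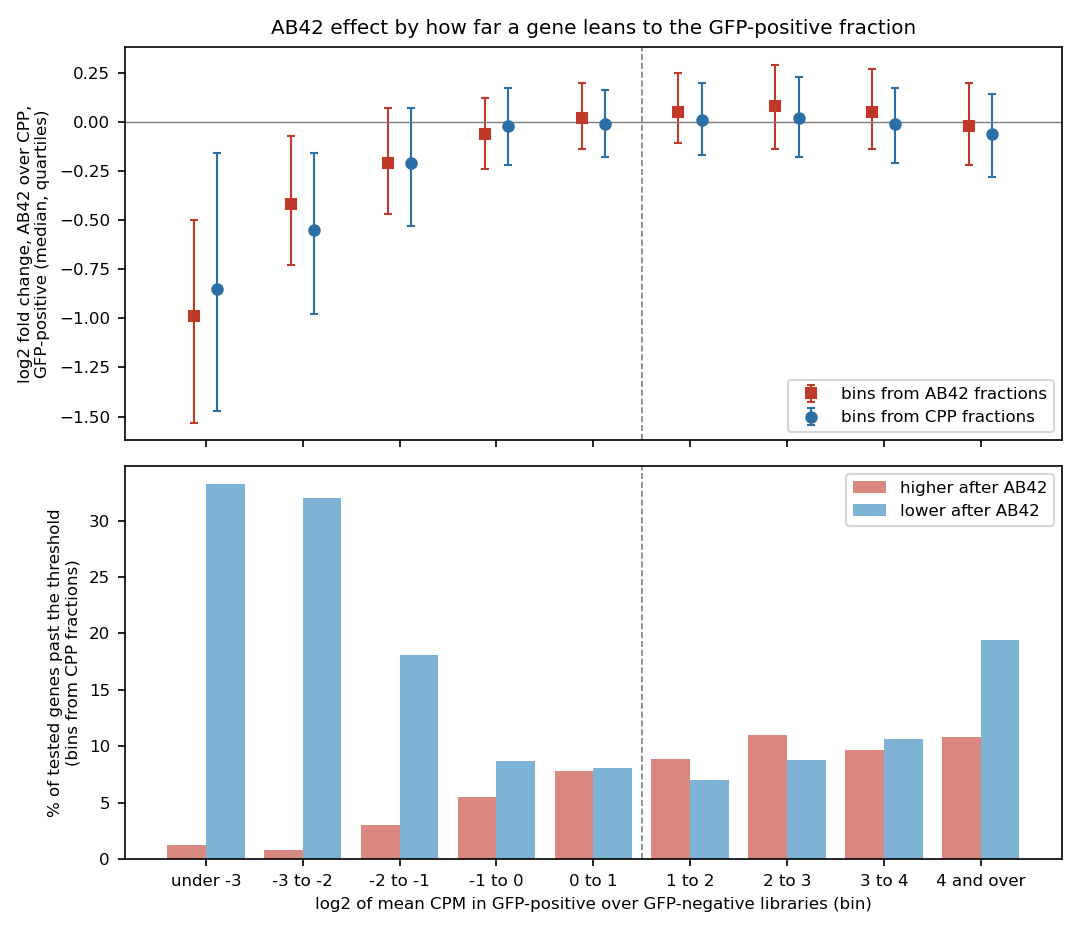
AB42 effect in GFP-positive cells for genes binned by the log2 ratio of their mean CPM in GFP-positive over GFP-negative libraries. The upper panel gives medians and quartiles of the log2 fold change, with bins from the AB42 or the CPP fractions, and the lower panel the percentage of genes past the threshold; the dashed line marks the 2-fold rule. In the leftmost CPP bin the median is -0.85 and 33.2% of genes were lower. In the rightmost CPP bin 19.4% were lower and 10.8% higher. Right of the line all CPP medians lie between -0.06 and 0.02.

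Radial glia identity genes split by gene. GFAP, the intermediate filament of astroglia (ENSDARG00000025301, GRCz10 chromosome 3, 31660727 to 31672767), had 277, 296 and 306 CPM in AB42 GFP-positive libraries, against 185, 187 and 199 CPM in CPP GFP-positive libraries. Every AB42 library was above every CPP library, a 1.54-fold rise (log2 0.62 ± 0.06 SE, edgeR adjusted p = 1.85e-09). The filament gene nes had 213, 204 and 184 CPM after AB42 and 148, 154 and 132 CPM after CPP (1.39-fold higher, edgeR adjusted p = 2.45e-05). NR2E1, a nuclear receptor that maintains neural stem cells, rose 1.27-fold. Opposite to these, the secreted growth factor MDK (ENSDARG00000020708) had 1344, 1363 and 1515 CPM after AB42 and 1980, 1832 and 2117 CPM after CPP, 1.4-fold lower with no overlap (edgeR adjusted p = 7.6e-09). The second MDK gene (ENSDARG00000036036) did not pass (log2 -0.02 ± 0.06 SE, edgeR adjusted p = 0.873). FABP7 (ENSDARG00000007697), a brain fatty acid binding protein and one of the most abundant glial messages, averaged 13620 ± 906 CPM after AB42 and 15652 ± 1283 CPM after CPP (1.15-fold lower, edgeR adjusted p = 0.00137), although the libraries of the groups overlapped. The second FABP7 gene (ENSDARG00000034650) did not pass (log2 -0.23 ± 0.11 SE, edgeR adjusted p = 0.154). PTF1A, a bHLH transcription factor, fell 1.81-fold to 15.6 ± 1.59 CPM, against 28.2 ± 4.72 CPM after CPP. S100B, a calcium-binding glial marker, was not past the threshold (518 ± 46.7 against 476 ± 26.5 CPM, edgeR adjusted p = 0.253, or 0.0143 with library totals). Of 33 glia-enriched members of the identity and filament list 10 rose and 7 fell (median -0.00), beside 9.62% and 8.93% of all glia-enriched genes. With library totals 12 rose and 4 fell, and without AB42 GFP-positive replicate 1 the counts were 8 and 4. The radial glia marker list leaned the other way, with 6 higher and 11 lower of 27 glia-enriched members (median -0.07). With library totals 7 of these markers rose and 7 fell (median 0.02).

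Genes with which these glia clear transmitter and ions included some of the most abundant messages that were lower after AB42. Of 27 glia-enriched members of the transport and gap junction list 4 rose and 10 fell (median -0.11), beside 9.62% and 8.93% of all glia-enriched genes; with library totals 6 rose and 6 fell. GLUL (ENSDARG00000099776, chromosome 2, 19339343 to 19343286), the glutamine synthetase that detoxifies glutamate, had 9733, 9713 and 10346 CPM in AB42 GFP-positive cells, against 13507, 13502 and 14137 CPM in CPP GFP-positive cells. The groups lay well apart, and the gene was 1.38-fold lower (log2 -0.47 ± 0.04 SE, edgeR adjusted p = 1.84e-12). GJA1, the connexin of astroglial gap junctions, had 2505, 2548 and 2659 CPM after AB42 and 3193, 3172 and 3334 CPM after CPP, 1.26-fold lower. MLC1, a membrane protein of astroglial endfeet in mammals, was 1.23-fold lower (657 ± 46.7 against 807 ± 28.8 CPM). The glutamate transporter SLC1A2 (ENSDARG00000102453) averaged 10494 ± 346 CPM after AB42 and 11508 ± 376 CPM after CPP, a fall of 1.1-fold (edgeR adjusted p = 0.00962) that was lost under 5 of 13 alternatives (adjusted p 0.05 to 0.51 there). Other transporters rose. SLC6A11, a GABA transporter, had 1401, 1490 and 1198 CPM after AB42 and 901, 1075 and 839 CPM after CPP (1.45-fold, edgeR adjusted p = 8.38e-07). The glycine transporter SLC6A9 rose 1.32-fold and the glutamate transporter SLC1A3 (ENSDARG00000043148) 1.2-fold. The pair of glutamate transporters thus differed in sign, but the fall of SLC1A2 depended on the fit (log2 -0.04 with library totals).

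The her4 genes, the Notch targets after which the reporter is named, were lower after AB42. Endogenous her4.1 (ENSDARG00000056732, chromosome 23, 21526006 to 21527063) had 1827, 1818 and 2031 CPM in AB42 GFP-positive libraries, against 2260, 2111 and 2461 CPM in CPP GFP-positive libraries. The highest AB42 library stood below the lowest CPP library (1.2-fold lower, log2 -0.27 ± 0.05 SE, edgeR adjusted p = 0.00023). Its neighbours her4.2, her4.3, her4.4 and her4.5 were 1.21-fold, 1.25-fold, 1.23-fold and 1.22-fold lower. These copies are near-identical, and in the table's coordinates her4.3 (21532712 to 21534589) lies largely inside her4.2 (21528601 to 21534583) and her4.5 (21542652 to 21544471) overlaps her4.4 (21535470 to 21544507), so how reads were split between them is uncertain. Some other Notch genes rose. LFNG, the fringe glycosyltransferase that tunes Notch receptors, had 302, 303 and 292 CPM after AB42 and 235, 226 and 222 CPM after CPP (1.31-fold). NRARP (ENSDARG00000091419), a Notch-induced feedback inhibitor, rose 1.19-fold, and her12, another her gene beside the her4 cluster, rose 1.53-fold to 27.1 ± 3.86 CPM, against 17.7 ± 0.943 CPM after CPP. In the whole list 4 of 25 glia-enriched members rose and 8 fell, beside 9.62% and 8.93% of all glia-enriched genes. The list median was -0.06, or 0.04 with library totals, when 4 rose and 5 fell. Without AB42 GFP-positive replicate 2 or without CPP GFP-positive replicate 1, 3 rose and 5 fell.

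Many replication genes were higher in the AB42 GFP-positive cells. Of 19 glia-enriched genes of the S phase list 10 rose and 1 fell, beside 9.62% and 8.93% of all glia-enriched genes. The list median was 0.43, against 0.00 over all glia-enriched genes. CHAF1B, a subunit of the factor that loads histones on new DNA, had 9.1, 10.8 and 8.91 CPM after AB42 and 3.95, 4.24 and 5.12 CPM after CPP (2.18-fold, edgeR adjusted p = 7.34e-05). Its partner chaf1a rose 1.53-fold. The helicase subunit MCM5 had 37.5, 38.5 and 45.2 CPM after AB42 and 25.7, 24.7 and 27.2 CPM after CPP (1.56-fold), MCM2 rose 1.34-fold and the ribonucleotide reductase subunit RRM2 (ENSDARG00000020711) 1.39-fold. The single fall was GMNN, geminin, which blocks relicensing of origins, at 12.8 ± 0.457 CPM after AB42 and 20.4 ± 1.6 CPM after CPP (1.59-fold lower, edgeR adjusted p = 0.000423). Of 16 glia-enriched mitosis genes 6 rose and none fell (median 0.51), but without AB42 GFP-positive replicate 1 the count was 2 and without CPP GFP-positive replicate 1 it was 3. TOP2A, the topoisomerase of dividing cells, kept its call in all of these fits (36.5 ± 4.55 CPM after AB42, 23 ± 3.62 CPM after CPP, 1.59-fold). The usual markers PCNA and mki67 did not meet the enrichment rule, at 1.49 and 1.94 times their GFP-negative level. Replication and mitosis genes were also higher in GFP-negative cells, with medians of 0.59 and 1.29 over the same glia-enriched genes.

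Most glia-enriched chaperone genes of the cytosol were higher after AB42. Of 11 glia-enriched cytosolic chaperone genes 8 rose and none fell (median 0.55), beside 9.62% and 8.93% of all glia-enriched genes. Over all 52 members tested 34 rose and 1 fell (median 0.30), beside 6.21% and 12.5% of all genes. HSPA8 (ENSDARG00000037403), a member of the Hsp70 family, had 539, 519 and 506 CPM in AB42 GFP-positive libraries, against 258, 270 and 259 CPM in CPP GFP-positive libraries. The levels did not come near each other (1.99-fold, log2 0.99 ± 0.06 SE, edgeR adjusted p = 5.69e-16). The small heat shock protein HSPB8 rose 2.13-fold (92.5 ± 5.69 against 43.5 ± 3.09 CPM) and HSPB1 1.46-fold. SERPINH1 (ENSDARG00000019949), the collagen chaperone of the endoplasmic reticulum (ER), rose 1.9-fold.

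Within the ER only part of the machinery was higher. HSPA5, the ER Hsp70 also called BiP (chromosome 5, 2440676 to 2448586), had 3107, 3085 and 3142 CPM after AB42 and 1610, 1726 and 1677 CPM after CPP (1.86-fold, log2 0.90 ± 0.04 SE, edgeR adjusted p = 4.64e-18). HSP90B1, its Hsp90 counterpart, had 858, 831 and 853 CPM after AB42 and 526, 558 and 526 CPM after CPP (1.58-fold). The stress-response transcription factor ATF3 rose 1.72-fold, the secreted ER protein MANF 1.4-fold and DDIT3, or CHOP, 1.14-fold. The disulfide isomerases P4HB and TXNDC5 were each 1.22-fold lower and DERL1, a factor of ER-associated degradation, 1.17-fold lower, and all 3 calls were lost with library totals (adjusted p 0.107 to 0.215). The list gave 11 higher and 3 lower of 34 glia-enriched members (median 0.12), beside 9.62% and 8.93% of all glia-enriched genes. It gave 16 and 0 with library totals, and 10 and 1 without AB42 GFP-positive replicate 3. In GFP-negative cells the same genes had a median of 0.72. HSPA5 there stood at 2568 ± 115 CPM after AB42 and 799 ± 9.44 CPM after CPP; the part of carried-over RNA in its rise was not tested.

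The glia-enriched cytokine genes included il11a (ENSDARG00000037859, chromosome 16, 12718110 to 12726230), a ligand of the interleukin-6 family, which rose. It had 93.9, 91.2 and 97.3 CPM in AB42 GFP-positive cells, against 27, 26.1 and 29 CPM in CPP GFP-positive cells. The groups were far apart relative to their spread (3.44-fold, log2 1.78 ± 0.10 SE, edgeR adjusted p = 1.86e-16). In GFP-negative cells it was rarer, at 11.9 ± 0.681 CPM after AB42 and 6.46 ± 1.43 CPM after CPP. Feedback inhibitors of cytokine receptors rose with it: SOCS3 (ENSDARG00000026611) had 340, 329 and 326 CPM after AB42 and 200, 206 and 203 CPM after CPP (1.63-fold), its second copy (ENSDARG00000025428) rose 1.19-fold and SOCS2 1.91-fold. The list of cytokine and JAK-STAT genes gave 7 higher and 1 lower of 15 glia-enriched members, beside 9.62% and 8.93% of all glia-enriched genes. The list median was 0.18, and 0.43 in GFP-negative cells, with 2 lower without CPP GFP-positive replicate 3. The one that fell was CEBPD, an acute-phase transcription factor, with 1279, 1184 and 1265 CPM after AB42 and 1992, 1930 and 2053 CPM after CPP (1.6-fold lower, edgeR adjusted p = 3.37e-12). Its relative CEBPB rose 1.27-fold.

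Related ligands also rose outside the glia-enriched genes. The interleukin-6 family cytokine clcf1 had 7.6, 7.83 and 4.35 CPM after AB42 and 1.03, 0.32 and 0.745 CPM after CPP (9.48-fold), and its secretion partner crlf1a had 20.9, 20.3 and 20.5 CPM after AB42 and 5.45, 2.4 and 5.49 CPM after CPP (4.66-fold). In the GFP-negative cells clcf1 was at 5.52 ± 0.246 CPM after AB42 and 3.95 ± 0.968 CPM after CPP and did not pass (edgeR adjusted p = 0.122). The effect differed between the fractions by 2.79 ± 0.41 on the log2 scale (SE, edgeR adjusted p = 1.71e-06). The lowest CPP GFP-positive level of clcf1, 0.32 CPM, lay near the floor of 3 counts, 0.21 CPM of that library's total. The sizes of its fold and of this difference are therefore uncertain. The interleukin-4 receptor gene il4r.1, which mediates interleukin-4 signals, rose 1.84-fold (43.2 ± 6.07 against 23.5 ± 2.96 CPM). It was likewise not glia-enriched, and it rose more in GFP-negative cells (49 ± 1.69 against 13.3 ± 1.34 CPM, edgeR adjusted p of the difference 5.58e-06).

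Growth factors and genes of wound repair rose in most glia-enriched cases, with 14 of 25 higher and 2 lower (median 0.35). In GFP-negative cells the same genes had a median of 0.68. For the difference between fractions 10 of them passed with a lower effect in GFP-positive cells and 4 with a higher one. Among all glia-enriched genes 22% and 3.54% did. The EGF-receptor ligand hbegfa (chromosome 14, 6742203 to 6745213) had 126, 124 and 139 CPM after AB42 and 51.5, 51.5 and 58.8 CPM after CPP (2.4-fold, log2 1.27 ± 0.08 SE, edgeR adjusted p = 2.51e-14). CCN2, connective tissue growth factor, had 362, 376 and 378 CPM after AB42 and 168, 171 and 186 CPM after CPP (2.12-fold). ANXA2, a membrane-binding annexin, rose 1.83-fold, and f3a, tissue factor, which starts coagulation, had 669, 655 and 621 CPM after AB42 and 413, 412 and 389 CPM after CPP (1.6-fold). Outside the lists, LMNA, which encodes A-type lamins of the nuclear envelope, had 115, 116 and 120 CPM after AB42 and 53.7, 52 and 48.8 CPM after CPP (2.26-fold, edgeR adjusted p = 1.5e-13). The AB42 libraries were above all CPP libraries for each of these genes, which the naming rule required of the largest rises among them. The falls were those of the insulin-like growth factors: igf2b was 1.29-fold lower (89.3 ± 5.5 against 115 ± 6.7 CPM, edgeR adjusted p = 0.00105) and IGF1 1.4-fold lower (12.7 ± 1.74 against 17.7 ± 1.85 CPM, edgeR adjusted p = 0.0403, a call lost under 5 of 13 alternatives). In the extracellular matrix list 7 of 37 rose and 1 fell (median 0.03), beside 9.62% higher and 8.93% lower among all glia-enriched genes.

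Immediate early genes gave 13 higher and 3 lower of 26 glia-enriched members (median 0.13), beside 9.62% and 8.93% of all glia-enriched genes. In GFP-negative cells the same genes had a median of 0.65. For the difference between fractions 21 passed with a lower effect in GFP-positive cells and 2 with a higher one, beside 22% and 3.54% of all glia-enriched genes. FOSL1, an AP-1 subunit, had 251, 266 and 259 CPM after AB42 and 179, 178 and 165 CPM after CPP (1.49-fold), KLF6 rose 1.53-fold, KLF4 1.8-fold and ZFP36L1 (ENSDARG00000021443), a protein that destabilises mRNA, 1.36-fold. KLF9, a target of glucocorticoid and thyroid hormone, had 55, 53.5 and 50.1 CPM after AB42 and 100, 95.8 and 88.7 CPM after CPP (1.79-fold lower, edgeR adjusted p = 2.64e-10). ANGPTL4, a lipase inhibitor that glucocorticoids and fasting induce, moved the other way (1442 ± 38.4 against 815 ± 22.2 CPM, 1.77-fold). The glucocorticoid list gave 4 higher and 4 lower of 11 (median 0.19). No gene of the circadian clock list was glia-enriched. Of 48 clock genes tested 14 rose and 20 fell in GFP-positive cells, beside 6.21% and 12.5% of all genes tested. The sampling hour and the injection cannot be told apart.

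The largest falls among glia-enriched genes included 4 genes of 1 interferon-induced family on chromosome 1. With 5.76, 6.17 and 4.67 CPM in AB42 GFP-positive libraries, against 18.9 CPM in each of the CPP GFP-positive libraries, ifi44a6 (ENSDARG00000095673, 7262731 to 7266891) was 3.38-fold lower (log2 -1.76 ± 0.16 SE, edgeR adjusted p = 6.5e-11). The most abundant member, ifi44a1, had 24.6, 28 and 34 CPM after AB42 and 73.3, 76.3 and 90.6 CPM after CPP (2.79-fold lower). Lower by 3.25-fold and 2.85-fold were ifi44a8 and ifi44a7. The family was looked at after its values were seen: all 6 members tested fell, with log2 fold changes from -1.98 to -1.29, while in GFP-negative cells 1 rose and none fell. Copies lie side by side and may share reads. Also lower was tap2a, which loads antigen peptides for MHC class I (14.3, 16.5 and 20.4 CPM after AB42, 40.9, 37.2 and 37.8 CPM after CPP, 2.28-fold). The complement gene c4 was 1.47-fold lower and the chemokine CXCL12 1.25-fold. The inflammation list gave 4 higher and 5 lower of 12 (median -0.13), beside 9.62% and 8.93% of all glia-enriched genes. With library totals the list gave 5 and 2. Its falls numbered 2 without AB42 GFP-positive replicate 1 or 2 or CPP GFP-positive replicate 3, and 3 without CPP GFP-positive replicate 1. Beside these falls, microglia markers in the GFP-positive libraries summed to 1490 to 1629 CPM after AB42 and 1910 to 2086 CPM after CPP. Of that sum cd74a held 21.5% after AB42 and 32.4% after CPP, and of 32 microglia markers tested 2 rose and 7 fell (median -0.07). The part of microglial RNA in these falls was not tested.

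Large rises were seen in diverse genes. The kininogen gene kng1 rose 4.53-fold (8.59 ± 1.21 against 1.92 ± 0.997 CPM) and the tubulin tubb6 3.84-fold (7.27 ± 1.29 against 1.93 ± 1.07 CPM). HOXA3, a Hox gene of hindbrain position, rose 4-fold (7.16 ± 0.783 against 1.79 ± 0.15 CPM) and HOXD3 2.28-fold. Looked at after these values were seen, 3 of 8 Hox genes tested rose and none fell, beside 6.21% higher and 12.5% lower of all genes. In GFP-negative cells 4 of these 8 rose and none fell, with a median of 1.11 against 0.97 in GFP-positive cells. There 38.2% of all genes passed in either direction. PMP22, known in mammals as a membrane protein of peripheral myelin, had 226, 224 and 257 CPM after AB42 and 113, 107 and 111 CPM after CPP (2.13-fold), and plekhs1.3 rose 2.36-fold. For each of these genes the 3 AB42 libraries lay above the 3 CPP libraries, which the rule for naming the largest rises required.

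**Figure D3:**
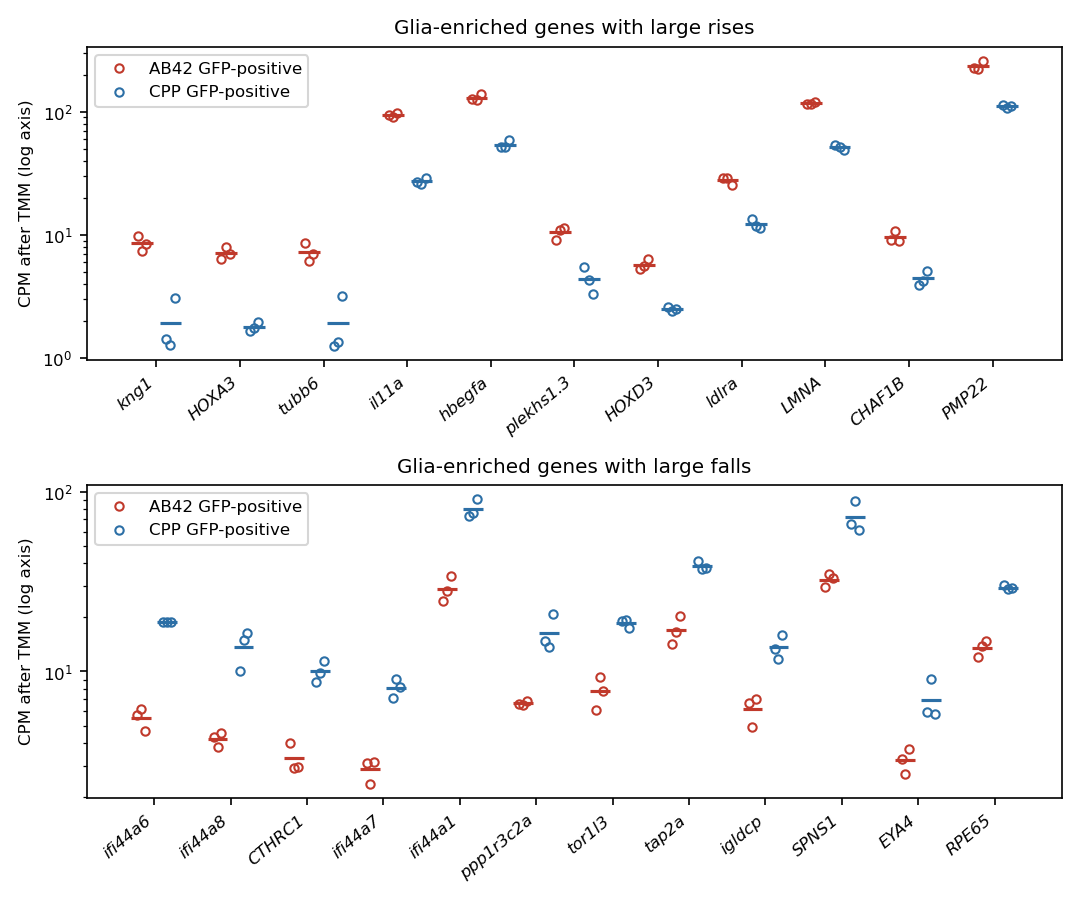
CPM after TMM scaling (log axes) of 11 glia-enriched genes with large rises and 12 with large falls chosen by the naming rule, 3 libraries a group (open points) with the group mean (line). The AB42 and CPP GFP-positive libraries do not overlap for any of them, which the naming rule required.

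The remaining large falls were of diverse genes. CTHRC1 (ENSDARG00000087198), a secreted collagen-repeat protein, had 4.01, 2.92 and 2.93 CPM after AB42 and 8.77, 9.83 and 11.4 CPM after CPP (3.01-fold lower). The glycogen-targeting phosphatase subunit ppp1r3c2a was 2.46-fold, the torsin-like tor1l3 2.4-fold and igldcp 2.23-fold lower. SPNS1, a lysosomal lipid transporter, had 29.5, 34.9 and 32.9 CPM after AB42 and 65.7, 88.9 and 60.9 CPM after CPP (2.22-fold lower). EYA4, a transcriptional coactivator, was 2.18-fold and RPE65 (ENSDARG00000007480), a retinoid isomerase known from the eye, 2.16-fold lower. The neuropeptide gene gnrh2 met the count filter and the enrichment rule through its CPP GFP-positive level, so its fall is in part set by that choice and is given as a description. It had 0 counts in all 3 AB42 GFP-positive libraries and 2.77, 1.68 and 2.61 CPM in the CPP libraries. Against a floor of 3 counts per library, 0.271 CPM, it was at least 8.68-fold lower; in GFP-negative cells it stood at 0.139 ± 0.182 CPM after AB42 and had 0 counts after CPP.

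Genes of lipid and retinoid metabolism moved in small groups. Among all glia-enriched genes 9.62% rose and 8.93% fell. Of 19 glia-enriched members of the cholesterol and fatty acid list 4 rose and none fell (median 0.04). The receptor gene ldlra, which takes up low-density lipoprotein, had 29, 28.9 and 25.5 CPM after AB42 and 13.5, 11.9 and 11.3 CPM after CPP (2.28-fold). SQLE (ENSDARG00000079946) and HMGCS1, enzymes of the sterol pathway, rose 1.71-fold and 1.39-fold. Outside that list the acyl-CoA synthetase acsl2, which is 129 times higher in GFP-positive than in GFP-negative cells after CPP, had 584, 657 and 699 CPM after AB42 and 287, 338 and 365 CPM after CPP (1.96-fold, edgeR adjusted p = 9.13e-12). CRABP1 (ENSDARG00000035904), a carrier of retinoic acid, fell 1.53-fold (40.4 ± 4.88 against 61.5 ± 6.13 CPM), in a retinoic acid list with 1 higher and 3 lower of 15 (median -0.06, or 0.03 with library totals and 0.02 without CPP GFP-positive replicate 1, when 2 were lower). The glutathione peroxidase gpx4a, which protects membranes from lipid peroxidation, was 1.37-fold lower; its list of iron and oxidative stress genes gave 3 higher and 6 lower of 17 (median -0.12; 4 and 3 with library totals), and 2 and 3 without AB42 GFP-positive replicate 1, AB42 GFP-positive replicate 2 or CPP GFP-positive replicate 3.

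Small numbers of genes moved in other signalling lists, and several counts moved with single libraries. Among all glia-enriched genes 18.6% passed. The Wnt list gave 2 higher and 2 lower of 27 (median -0.02, or 0.08 with library totals), with the ligand wnt7ba 2.07-fold lower (4.19 ± 0.661 against 8.73 ± 1.67 CPM). The BMP and TGF-β list gave 4 and 3 of 21 (median 0.00). In it the repressor TGIF1 had 443, 450 and 474 CPM after AB42 and 295, 299 and 319 CPM after CPP (1.5-fold higher), and the ligand GDF10 was 1.32-fold (ENSDARG00000095378) and 1.53-fold (ENSDARG00000073891) lower for its 2 genes. The FGF list gave 3 and 2 of 18 (median 0.06), with the receptor fgfr4 1.47-fold higher. The p53 and apoptosis list gave 3 and 2 of 16 (median 0.09). When 1 GFP-positive library was left out, the Wnt list gave 0 or 1 higher and 1 or 2 lower, the FGF list 2 or 3 higher and 1 or 2 lower, and the p53 list 1 to 3 higher and 1 or 2 lower. With library totals the BMP and TGF-β list gave 8 higher and 3 lower.

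The ciliary regulator FOXJ1 was higher after AB42. Of 48 glia-enriched genes of motile cilia 5 rose and 1 fell (median 0.11), beside 9.62% and 8.93% of all glia-enriched genes. The count of rises was 9 in the fit of the 6 GFP-positive libraries, and 3 without CPP GFP-positive replicate 1 or 3 and with DESeq2. FOXJ1, which governs motile ciliogenesis (ENSDARG00000101919, chromosome 3, 60637106 to 60838792), had 164, 158 and 157 CPM in AB42 GFP-positive cells, against 87.8, 82.9 and 81 CPM in CPP GFP-positive cells. Each AB42 library was above every CPP library (1.9-fold, log2 0.93 ± 0.07 SE, edgeR adjusted p = 2.25e-12). RFX4, a transcription factor of the RFX family that governs ciliary genes, rose 1.29-fold and TPPP3, a tubulin-binding protein of ciliated cells, 1.53-fold. Beside these rises, the ependymal markers summed to 683 to 703 CPM after AB42 and 587 to 611 CPM after CPP. FOXJ1 is one of them, at 159 CPM (23% of the sum) after AB42 and 84.1 CPM after CPP, so that sum is not separate from its rise. Of 42 ependymal markers tested 4 rose and 1 fell (median 0.15). Their part in these rises was not tested. The dynein chain gene dnai2b had 3.09, 3.79 and 4.35 CPM after AB42 and 2.05, 0.959 and 0.838 CPM after CPP (2.85-fold, edgeR adjusted p = 0.00186). The fall was that of foxj1b, the second zebrafish foxj1 gene, at 26.5 ± 0.887 CPM after AB42 and 34.5 ± 0.967 CPM after CPP (1.3-fold, edgeR adjusted p = 0.0141, or 0.0844 with library totals and 0.0561 without CPP GFP-positive replicate 2).

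**Figure D4:**
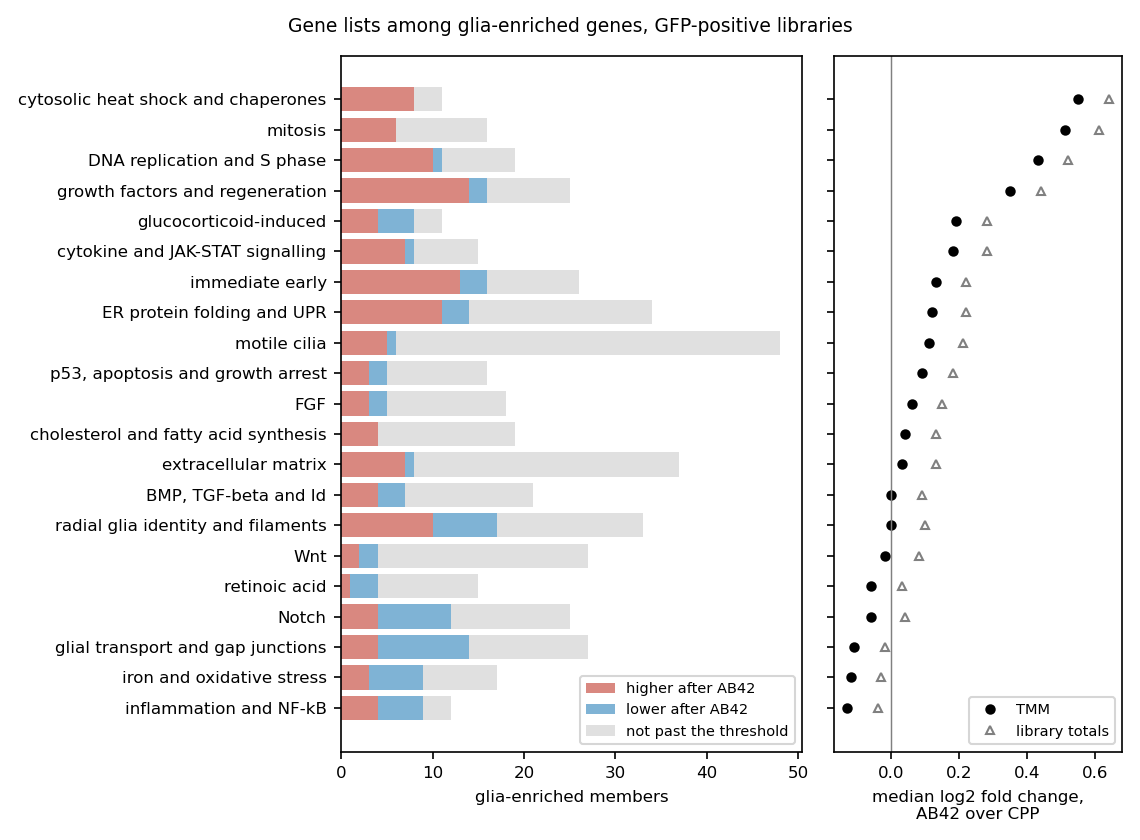
Glia-enriched members of each gene list that were higher, lower or not past the threshold in AB42 against CPP GFP-positive libraries (left), and the median log2 fold change of those members with TMM scaling and with library totals (right). Medians of the chaperone, mitosis and S phase lists are 0.55, 0.51 and 0.43, and library totals move every median upwards.

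Whether a change differed between the fractions was tested directly. Of 4064 glia-enriched genes 25.6% passed for the difference of the AB42 effects, 3.54% (144) with a higher effect in GFP-positive cells and 22% (895) with a lower one. Of all genes tested 21.9% passed, 5.46% higher and 16.5% lower. The rule for glia-enriched genes reads the CPP libraries of both fractions, which also enter this difference, so it favours lower differences. With the rule read from the AB42 fractions, which favours higher ones, 274 were higher and 484 lower. In GFP-negative cells 35.5% of glia-enriched genes and 38.2% of all genes were past the threshold. Of the 391 glia-enriched genes that rose in GFP-positive cells, 235 also rose past the threshold in GFP-negative cells, 49 rose by more in GFP-positive cells and 88 by less. Of the 363 that fell, 52 fell past the threshold in GFP-negative cells and 103 rose there, and 210 had a lower effect in GFP-positive cells. The summed radial glia markers were higher in AB42 than in CPP GFP-negative cells (6774 to 6966 against 3887 to 4139 CPM). Of that sum apoeb alone averaged 3506 CPM after AB42, or 51.2%, and 866 CPM after CPP. Over the 27 glia-enriched radial glia markers the median log2 fold change in GFP-negative cells was 0.10. The part of these markers in the differences was not tested. With library totals 396 differences were higher and 524 lower.

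Rises that were larger in GFP-positive cells included il11a (difference 0.87 ± 0.17 on the log2 scale, edgeR adjusted p = 0.000136), LMNA (0.89 ± 0.13), hbegfa (0.72 ± 0.15) and HSPA8 (0.56 ± 0.08). FOXJ1 differed by 0.73 ± 0.13, with 13.9 ± 1.44 CPM after AB42 and 11.9 ± 0.852 CPM after CPP in GFP-negative cells, and acsl2 by 1.37 ± 0.26. Among falls, GLUL differed by -0.62 ± 0.05, and in GFP-negative cells it averaged 1459 ± 5.28 CPM after AB42 and 1312 ± 41.6 CPM after CPP. SPNS1 fell in GFP-positive cells and rose in GFP-negative cells (48.8 ± 7.56 against 25.4 ± 3.73 CPM, difference -2.09 ± 0.17). The ifi44a6 and ifi44a8 genes, lower in GFP-positive cells, differed by -1.81 ± 0.23 and -2.39 ± 0.27. In contrast sgk2b, a kinase of the SGK family, rose in both fractions and more in GFP-negative cells. There it stood at 18 ± 2.13 CPM after AB42, above its 7.92 ± 0.595 CPM in GFP-positive cells. For GFAP (0.08 ± 0.17, edgeR adjusted p = 0.784) and her4.1 (-0.11 ± 0.09, edgeR adjusted p = 0.409) no difference between the fractions was detected, at GFP-negative levels of 3.2 to 32.3 CPM. Among the other her4 copies, her4.2 (-0.21), her4.3 (-0.22) and her4.5 (-0.28) did pass for the difference. How reads were split between the copies is uncertain.

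**Figure D5:**
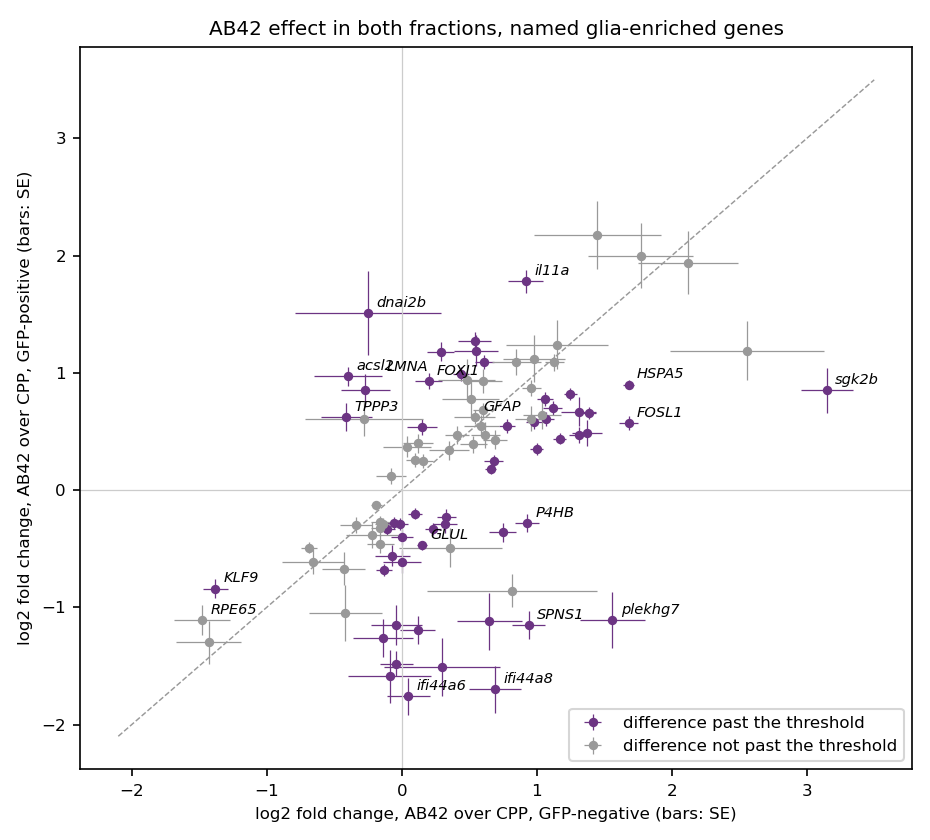
Log2 fold change of AB42 over CPP in GFP-positive (vertical axis) and GFP-negative cells (horizontal axis) for the named glia-enriched genes other than gnrh2, with standard errors; purple marks an adjusted p under 0.05 for the difference and the dashed line marks equal effects. HSPA5, FOSL1 and sgk2b lie below the line; il11a, LMNA and FOXJ1 lie above it.

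Genes outside the glia-enriched set included the largest fold changes named here. The transglutaminase F13A1 (ENSDARG00000045453) had 13.1, 12.4 and 11.8 CPM in AB42 GFP-positive libraries, against 0.948, 1.84 and 0.838 CPM in CPP GFP-positive libraries (10.1-fold). It was higher still in GFP-negative cells, at 34.8 ± 2.85 CPM after AB42 and 2.26 ± 0.307 CPM after CPP. The tendon transcription factor SCX rose 4.66-fold, with 3.15 ± 0.384 and 2.87 ± 0.587 CPM in GFP-negative cells. Among falls, the immunoglobulin gene ighm had 0.25, 0.237 and 0.543 CPM after AB42 and 13, 9.91 and 12.2 CPM after CPP (34.9-fold lower), the keratin krt5 12.8, 8.77 and 16.1 against 103, 114 and 89.4 CPM (8.3-fold), and cldnb and cbln12 were 8.37-fold and 8.4-fold lower. The AB42 levels of ighm lay near the floor of 3 counts, 0.271 CPM on average in these libraries, so the size of its fold is uncertain. In GFP-negative cells ighm was higher after AB42 (57.4 ± 3.15 against 37.3 ± 2.25 CPM) and krt5 did not pass (810 ± 75.4 against 712 ± 21.3 CPM, edgeR adjusted p = 0.0606). Of these genes ighm marks B cells, krt5 and cldnb mark epithelium and cbln12 is a cerebellin gene. The median lymphocyte and neutrophil marker stood at 5.78% of the GFP-negative level after AB42 and 17.4% after CPP. For epithelium it stood at 6.8% and 16.9%, and for cerebellar neurons at 11.1% and 19.7%. Not all markers of these lists fell in GFP-positive cells. Of 26 epithelial markers tested 3 rose (krt8, krt18a.1 and krt4) and 10 fell. Of 24 lymphocyte and neutrophil markers tested 1 rose (MMP9) and 8 fell. Among all genes 6.21% rose and 12.5% fell. The part of these cell types in the changes was not tested.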

How the data were processed

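Polyadenylated RNA of sorted cells was copied with template switching, amplified and read single-end over 75 bases, per the labels' protocols. The authors deposited raw read counts per Ensembl gene, made with BWA 0.7.12 and featureCounts on GRCz10 (danRer10) per the submitters' processing notes. The sources used here do not give the strand setting, annotation release or filters. Symbols came from the supplied gene name table and coordinates from the deposited table. The 37 mitochondrial genes had 0 counts throughout.

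Counts were fitted with edgeR 4.0.16 (R 4.3.3) over all 12 libraries: filterByExpr, TMM, 4 group means, quasi-likelihood test, Benjamini-Hochberg over 20237 genes, prior count 0.125. SEs of log2 fold changes were taken as the absolute value divided by the square root of F. The model was tested on simulated counts. Alternatives used RLE factors, library totals, DESeq2 1.42.0, other count filters, 6 libraries, left-out replicates, the replicate block and other enrichment rules.

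The members and gene lists were chosen with earlier results of these data known. Of the listed symbols 988 matched regardless of case, 339 without a paralog letter, 38 by a RefSeq synonym and 78 not at all. Glia-enriched genes were named as the 12 largest rises and falls by fold past the threshold, without overlap and with at least 5 CPM in the higher group, then the largest changes in CPM, up to 3 list members with the smallest p, the largest changes outside the set and of the difference, and genes fixed by name; a selection is printed, and other list members were named after their values were seen. A few genes that the rule names are not reported here. Promoter motifs and sequences were not analysed here.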

Additional observations from a re-analysis of the deposited data

Results flagged for a closer look

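The AB42 effect differed between GFP-positive and GFP-negative cells (edgeR adjusted p under 0.05 for the difference) for 56 named glia-enriched genes that also passed in GFP-positive cells. In all, 110 genes were named, glia-enriched or not. Some were named for the size of this difference, so the count of 56 is in part set by that choice. Among all glia-enriched genes, whether or not they passed in GFP-positive cells, 3.54% had a higher difference and 22% a lower one. Values are the log2 effect in GFP-positive minus that in GFP-negative cells. The differences were positive for dnai2b (1.76), acsl2 (1.37), KLF4 (1.11), TPPP3 (1.03), LMNA (0.89), il11a (0.87), FOXJ1 (0.73), hbegfa (0.72), ldlra (0.63), HSPA8 (0.56), KLF9 (0.54), CCN2 (0.47) and SLC6A11 (0.39); KLF9 fell in both fractions and by less in GFP-positive cells.

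They were negative for genes that rose in GFP-positive cells: sgk2b (-2.31), FOSL1 (-1.11), MANF (-0.88), HMGCS1 (-0.83), HSPA5 (-0.79), HSP90B1 (-0.73), ZFP36L1 (-0.73), CEBPB (-0.65), TOP2A (-0.64), DDIT3 (-0.47), KLF6 (-0.46), ANGPTL4 (-0.43), NRARP (-0.43), SOCS3 (ENSDARG00000026611, -0.41), TGIF1 (-0.40), ATF3 (-0.27) and HSPB1 (-0.23).

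Among genes that fell in GFP-positive cells the differences were negative for plekhg7 (-2.67), ifi44a8 (-2.39), SPNS1 (-2.09), ifi44a6 (-1.81), ifi44a7 (-1.81), EYA4 (-1.77), CTHRC1 (-1.50), ifi44a1 (-1.44), tap2a (-1.31), P4HB (-1.21), igf2b (-1.12), tor1l3 (-1.12), igldcp (-1.11), GLUL (-0.62), TXNDC5 (-0.61), CRABP1 (-0.61), GJA1 (-0.57), DERL1 (-0.56), CEBPD (-0.55), c4 (-0.49), GDF10 (ENSDARG00000095378, -0.40), FABP7 (-0.30), her4.5 (-0.28), her4.3 (-0.22) and her4.2 (-0.21). For gnrh2 the fitted difference was -11.88; it rests on groups at 0 counts, depends on the prior count and is not a bound.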

How the results depend on the processing

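Of 109 named genes past the threshold in GFP-positive cells, 6 lost the call under at least 1 of the 13 alternatives (SLC1A2, P4HB, DERL1, TXNDC5, foxj1b and IGF1), S100B gained one with library totals, and none changed sign. With library totals in place of TMM, 2112 of all genes were higher; of glia-enriched genes 604 were higher and 228 lower, and differences between fractions were higher for 396 and lower for 524. The rule for glia-enriched genes moved counts by taking in other genes: at least 4-fold enrichment gave 383 genes past the threshold (184 higher, 199 lower) and 440 differences (57 higher, 383 lower), and the rule on library-total CPM gave 85 higher differences. The rule on the AB42 fractions gave 274 higher and 484 lower differences, and the rule on both injections gave 628, of which 484 were lower. Of the 754 glia-enriched genes past the threshold, 619 kept call and direction with library totals and 705 in the 6-library fit, and none passed in the opposite direction under any alternative. Leaving out 1 GFP-positive library gave 2871 to 3478 genes past the threshold (940 to 1150 higher, 1926 to 2328 lower), 566 to 699 glia-enriched (303 to 359 higher, 263 to 343 lower) and 884 to 1008 differences (117 to 135 higher, 767 to 873 lower). RLE factors, DESeq2 and the other filters left these counts within 1.5 times. Deviations of same-numbered AB42 and CPP GFP-positive libraries correlated at 0.000921, 0.0441 and 0.0923, and those of the other pairs of groups at -0.0209 to 0.074. Libraries numbered 3 correlated at 0.0599 to 0.0923 in every pair of groups, and libraries of different numbers at -0.0942 to 0.0643. The main fit did not take the numbers to pair the samples. Whether same-numbered libraries share a source was not tested. With the replicate block 1485 of all genes were higher and 2871 lower, and 460 and 426 of the glia-enriched genes, and 1175 differences passed; not every library correlated best with its own number. Depth limits genes near the floor of 3 counts, 0.202 to 0.288 CPM, in these libraries.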
